A study of Mus musculus with 12 samples.

Results

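The passage from the germinal vesicle (GV) oocyte, the arrested oocyte before maturation, to the 1-cell embryo was followed in the absence of Pabpn1l. It was measured with 2 KO GV libraries and 2 KO 1-cell libraries, chosen by their labels, out of 12 libraries in the series. All 11298 genes with a complete set of values entered the comparison, and 1 incomplete entry was left out; symbols ran from 0610007C21Rik to Zc3h14, and later ones are not analysed here. Each library held 10 oocytes or embryos of C57BL/6 mice and was made by Smart-seq2, a full-length method that primes complementary DNA with oligo-dT. The KO GV libraries came from oocytes labelled Pabpn1l-KO that were taken from the animal, and the KO 1-cell libraries from embryos labelled Pabpn1l-KO that were grown in KSOM medium. The corresponding 2 WT GV and 2 WT 1-cell libraries, labelled Pabpn1l-WT and of the same strain, served as the reference for the same passage with Pabpn1l. The labels do not say whether the embryos themselves or only their mothers were knockout. Nor do they say that the 2 libraries of a group are from different animals, and p-values then reflect only how far these samples differ, possibly for technical reasons.

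Fully grown mouse oocytes make little new RNA and carry a store of maternal transcripts, many of them kept silent with short poly(A) tails. During maturation and after fertilization, part of this store is deadenylated by the CCR4-NOT complex and destroyed, while other transcripts are polyadenylated through cytoplasmic polyadenylation elements (CPEs) in the 3′ untranslated region (UTR) and translated. Btg4 encodes an adaptor that brings CCR4-NOT to maternal transcripts, and Pabpn1l is an oocyte-expressed relative of the nuclear poly(A)-binding protein Pabpn1. The comparison asks which maternal transcripts still fall between the GV oocyte and the 1-cell embryo when Pabpn1l is missing.

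The deposited values are FPKM, the fragments per kilobase of transcript scaled to the fragments mapped in a library, with nothing below 1 FPKM, which is called the floor here. The steps between the values of a column showed that the 2 KO 1-cell columns had been multiplied by 0.432 and 0.552, whereas this library factor was 1 in both KO GV columns. What the factor was based on is not given in the sources used here. The KO GV columns summed to 606488 and 602497 FPKM and the KO 1-cell columns to 236619 and 285396 FPKM, with 993 and 1045 genes at the floor before and 3370 and 2745 after. Each result is therefore given as deposited and after centring, in which each library was rescaled to the same median over the 7782 genes above 1 FPKM in all 4 columns and the highest resulting floor, 3.01 FPKM, was set for all 4. A centred change states how a transcript moved relative to the middle transcript and not how much of it was lost. Depth cannot be read from FPKM, so it is unknown here and intervals for counting error are left out.

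Pabpn1l itself was measured first. It stood at 7.23 and 4.98 FPKM in KO GV oocytes and at 2.58 and 4.55 FPKM in KO 1-cell embryos, against 220.1 and 203.9 FPKM in WT GV oocytes. Both KO GV values lay far below both WT values, and the KO change over the passage did not pass the test (log2 change as deposited −0.66, limma adjusted p = 0.212). The oocyte markers Gdf9 and Bmp15, which encode growth factors secreted by the oocyte, were at 3562 and 2331 FPKM and at 1780 and 1631 FPKM in KO GV. Of 18 markers of cumulus and granulosa cells, sperm, and blood and immune cells, 5 were at the floor in all 4 KO libraries. The summed level of the 7 cumulus and granulosa markers went from 92.3 and 80.5 FPKM in KO GV to 25.7 and 30.9 FPKM in KO 1-cell, that of the 4 sperm markers from 106.6 and 104.0 to 18.9 and 25.3 FPKM, and that of the 7 blood and immune markers from 20.6 and 21.3 to 10.8 and 16.1 FPKM. Most of the first sum came from Esr2 and Cyp19a1, whereas the granulosa markers Amhr2 and Hsd17b1 were at the floor in all 4 libraries. The part of such cells in the results was not tested. Fewer cells of a type and less RNA per cell cannot be told apart in pooled libraries.

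Without Pabpn1l, large parts of the maternal store still measured lower in the 1-cell embryo. As deposited, 4943 genes were lower in KO 1-cell than in KO GV at an adjusted p under 0.05 (limma on log2 of FPKM + 1, Benjamini-Hochberg), which is 43.8% of all genes tested, and 3601 of them were lower by at least 2-fold. Only 10 genes, 0.0885% of those tested, were higher. The median of the 7782 genes above 1 FPKM in all 4 libraries was −1.04 on the log2 scale, a 2.05-fold lower level. After centring, 1189 genes (10.5%) were lower and 762 (6.74%) higher in KO 1-cell than in KO GV, relative to the change of the middle transcript. All 1189 were also lower as deposited, where they made up 24.1% of the lower calls, and 22 genes were lower as deposited and higher after centring. When only genes averaging at least 5 FPKM were fitted, 1763 of 6330 (27.9%) were lower and 2122 (33.5%) higher after centring, among them 966 of the 969 lower calls and 521 of the 536 higher calls that were tested there. Genes at the floor in all libraries have no spread, and 2345 of the 11298 genes had none after centring. In 255 of the 1189 lower calls both 1-cell values were at the centred floor, so the size of these falls depends on the floor. On simulated data the centred fit over all genes recovered none of the changed genes and the fit with the higher mean nearly all, so genes that did not pass here cannot be taken as unchanged. With the replicate number as a block, or with the numbers crossed, 0 genes were called lower and 0 higher after centring (limma, Benjamini-Hochberg), although 1629 and 1429, or 1950 and 2113 when crossed, had an unadjusted p under 0.05, against 2041 and 2291 without a block. The numbers did not pair the libraries. Leaving out 1 library moved the counts. As deposited the lower calls numbered 1113 without KO 1-cell replicate 1, 3229 without KO GV replicate 1 and up to 3473 otherwise. After centring they numbered 279 and 266 without KO 1-cell replicate 1 or 2, and 694 and 753 without KO GV replicate 1 or 2. The centred higher calls numbered 38 and 68 without KO GV replicate 1 or 2, and 385 and 478 without KO 1-cell replicate 1 or 2.

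**Figure D1:**
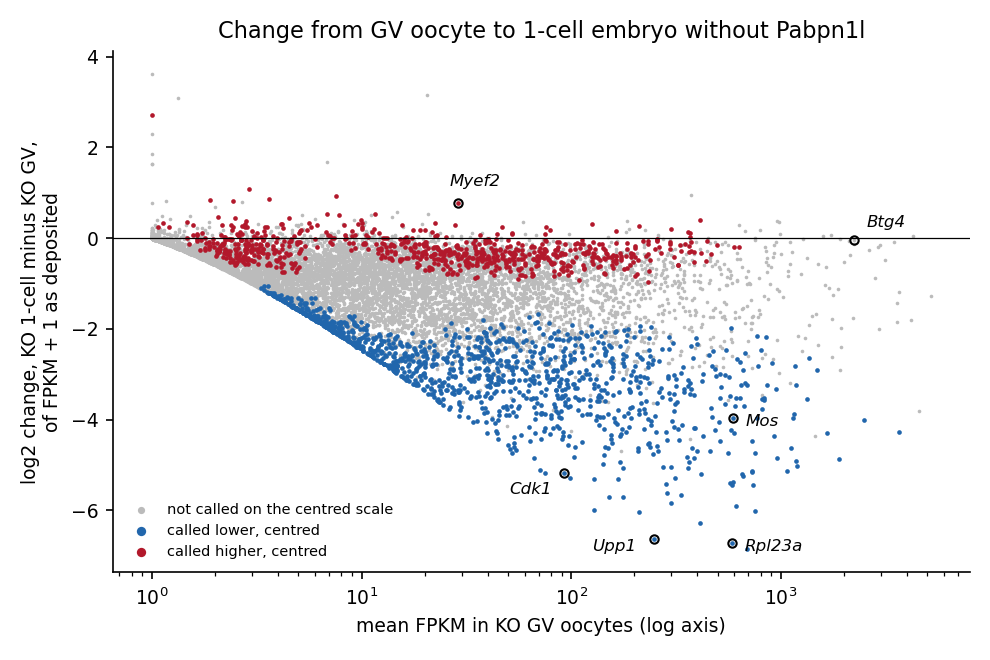
Each point is a gene, with its mean FPKM in the 2 KO GV libraries on the x axis (log axis) and its log2 change of FPKM + 1 from KO GV to KO 1-cell as deposited on the y axis. Blue and red mark the 1189 lower and 762 higher calls on the centred scale; the slanted lower edge is set by the floor of 1 FPKM, and Btg4 lies at −0.03 while Mos lies at −3.97.

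Among the maternal transcripts of the KO oocyte, those with at least 5 FPKM in both KO GV libraries, 6752 were measured. As deposited, 3499 of them (51.8%) were lower in the 1-cell embryo. On both scales 1114 (16.5%) were lower, 378 of these by at least 4-fold after centring and 25 by at least 16-fold. A transcript with a low KO GV level cannot show falls of these sizes, because of the centred floor of 3.01 FPKM. In 137 maternal transcripts both KO 1-cell libraries were at the floor as deposited. At the other end, 682 maternal transcripts (10.1%) had a mean 1-cell level within 1.25-fold of the GV level even as deposited. After centring, 533 were higher in KO 1-cell than in KO GV, relative to the change of the middle transcript.

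Mos and Btg4 were named by gene and not by the size of their change. Mos, the kinase that drives MAPK signalling in maturing oocytes, measured 644 and 538 FPKM in KO GV and 30.8 and 43.6 FPKM in KO 1-cell. The groups did not overlap, and Mos fell on both scales (log2 change −3.97 as deposited, adjusted p = 0.00473; −2.64 ± 0.11 SE centred, adjusted p = 0.0127). Btg4 measured 2174 and 2290 FPKM in KO GV and 2101 and 2283 FPKM in KO 1-cell. Its groups overlapped as deposited (−0.03, adjusted p = 0.918), and its centred change of 1.33 ± 0.58 SE did not pass (adjusted p = 0.224).

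The ends of the 3′ UTRs of some transcripts described here are shown because the CPE and the polyadenylation hexamer, which directs cleavage and tail addition, lie there. Capitals mark a CPE, written TTTTAT or TTTTAAT, or a hexamer, written AATAAA or ATTAAA, on the strand of the transcript. The 30-base windows were read from GENCODE M21 transcripts of the same symbol on GRCm38, a build other than the mm9 of the submitters' notes. The first 4 transcripts were lower after centring and the other 4 were not. Each fallen transcript shown has a hexamer and no CPE in the final 100 bases of its UTR, which in Upp1 and Rps27a is shorter than 100 bases.
Mos: taccactagggcatatttttaggaAATAAA
Upp1: gagaagcctctgcaactcctgggcAATAAA
Rps27a: ttgtgtatgcgttAATAAAaagaaggaact
Cdk1: aatttaatgtgcctaatggcacggAATAAA
Btg4: ccctTTTTATgtctttttaaaagtttgatt
Cnot7: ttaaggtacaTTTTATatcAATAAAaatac
Paip1: atagTTTTATtatgtacagttaattctact
Orc6: taaaTTTTATttcactaaatgttatatagc
The windows lie at chr4:3870673-3870702 on the minus strand for Mos, chr11:9136122-9136151 plus for Upp1, chr11:29545850-29545879 minus for Rps27a and chr10:69335168-69335197 minus for Cdk1. Those of the others lie at chr9:51119805-51119834 plus for Btg4, chr8:40493036-40493065 minus for Cnot7, chr13:119457310-119457339 plus for Paip1 and chr8:85308013-85308042 plus for Orc6. The 8 were picked after their values were seen, and a match of letters is a description only. Their split does not hold for other named genes. Utp11l, H2afx, Lsm3, Plat and Fbxo5 fell after centring and hold a CPE in the last 100 bases. Myef2, Tcl1b2, Tcl1b5, Lin7c, Srsf5 and Swi5 rose after centring and hold none there.

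Over all transcripts the same letters can be counted without picking. Of the 6752 KO maternal transcripts, 6483 (96.0%) had a GENCODE transcript, and a CPE was sought in the last 100 bases of every UTR of at least 100 bases. It was found in 10.6% of 283 transcripts with a centred fall of at least 4-fold, in 12.7% of 722 with a fall of 2 to 4-fold and in 16.1% of 1638 with a smaller fall. It was found in 24.0% of 2738 transcripts with a centred rise under 2-fold and in 33.2% of 626 with a rise of at least 2-fold, against 19.7% of the 9779 such windows in the whole table. Median UTR length moved along the same order, from 236 bases in the transcripts with the strongest fall to 403, 714, 1021 and 1145 bases. The hexamer in the last 50 bases was found in 59.0%, 70.4%, 77.3%, 83.7% and 83.1%, against 78.4% in the whole table. A motif of Pumilio proteins, TGTANATA, anywhere in the UTR went from 11% to 35.8%, and the AU-rich letters TATTTAT from 13.4% to 37.4%, against 24.8% and 27.8% in the table. These last 2 shares were taken over the whole UTR, whose length differs between the classes. Median GC content of the transcript was 52.4% in the class with the strongest fall and 46.8% in the class with the strongest rise. Level differed too: the median in KO GV was 91.6 FPKM in the class with the strongest fall. It was 32, 20.6, 22.8 and 28.5 FPKM in the other classes, in the same order. The centred floor of 3.01 FPKM keeps transcripts of low level out of the class with the strongest fall. The part of level in all these shares was not tested.

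Upp1 had the largest centred fall of the genes named by size. Upp1, a uridine phosphorylase of pyrimidine salvage, measured 271 and 227 FPKM in KO GV and 1.08 and 2.05 FPKM in KO 1-cell (centred log2 change −5.69 ± 0.18 SE, adjusted p = 0.0103). Rpl23a, a protein of the large ribosomal subunit, measured 506 and 670 FPKM before and 3.78 and 5.41 FPKM after (−5.54 ± 0.19 SE, adjusted p = 0.0112). In both genes the groups did not overlap and the 1-cell values were close to the floor.
Other genes named by size of fall were Gm9846, which RefSeq lists as the ribosomal protein retrogene Rps27rt (−5.65), Rps27a (−5.10), Lsmd1, which RefSeq lists as Naa38, of an N-terminal acetyltransferase (−5.01), Rps19 (−4.98), the ubiquitin ligase gene March7 (−4.70), the spliceosome gene Snrpd2 (−4.66) and the complex I gene Ndufa9 (−4.65), with adjusted p-values between 0.0064 and 0.0199. In Lsmd1 both KO 1-cell libraries were at the centred floor of 3.01 FPKM, so the size of its fall depends on the floor. Ribosomal protein genes have many near-identical copies in the genome, and how reads of such copies were assigned is not given in the sources used here.
The transcripts with a centred fall of at least 16-fold, selected by that size, also included the ribosomal protein genes Rpl24, Rps15, Rps20 and Rps4x, the respiratory chain genes Atp5o, Ndufb7 and Uqcrq, and Fcf1, Cdk1, Bloc1s1, Il1f9, Gm15772, 1700021C14Rik and 1700021F07Rik. Il1f9 and 1700021F07Rik were at the centred floor in both KO 1-cell libraries.

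Cdk1, the kinase that drives entry into M phase, was also among the transcripts with a centred fall of at least 16-fold. It measured 98.4 and 85.6 FPKM in KO GV and 1.595 and 1.503 FPKM in KO 1-cell (−4.22 ± 0.22 SE centred, adjusted p = 0.0158). In WT it measured 82.6 and 100.1 FPKM before and 5.93 and 4.23 FPKM after, so the 1-cell values of the genotypes did not overlap and those of KO were the lower ones.

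Centred rises, in which a transcript gained on the middle transcript from GV to 1-cell, were found for Myef2, Tcl1b2 and other genes. Myef2, a regulator of transcription, measured 25.8 and 31.9 FPKM in KO GV and 53.1 and 47.0 FPKM in KO 1-cell. Both 1-cell values exceeded both GV values, and Myef2 rose on both scales (0.78 as deposited, adjusted p = 0.0396; 2.12 ± 0.30 SE centred, adjusted p = 0.046). Tcl1b2, of an oocyte-expressed family related to the Akt coactivator Tcl1, measured 412 and 414 FPKM before and 519 and 565 FPKM after (0.39 as deposited, adjusted p = 0.0563; 1.74 centred, adjusted p = 0.0315). Its relative Tcl1b5 had a centred change of 1.66 (adjusted p = 0.00956).
The other genes named by size of centred rise were Lin7c (1.66), the splicing factor gene Srsf5 (1.62), the recombination gene Swi5 (1.61), 2010107G23Rik (1.59), Ccdc90b (1.58), the mitochondrial Romo1 (1.56) and Lamtor2, of the complex that anchors mTORC1 to lysosomes (1.54). None of these 7 passed as deposited, where their log2 changes lay between 0.19 and 0.33.

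Of the 10 genes that were higher as deposited, 3 were small noncoding RNAs. Vaultrc5, a vault RNA, measured 1.67 and 1.00 FPKM in KO GV and 26.3 and 12.9 FPKM in KO 1-cell (3.08 as deposited, adjusted p = 0.0207). Scarna13, a small Cajal body RNA, was at the floor in both KO GV libraries and at 11.8 and 12.3 FPKM in KO 1-cell, and Scarna6 was at the floor before and at 9.38 and 4.09 FPKM after. In WT 1-cell embryos Vaultrc5 measured 26.4 and 19.2 FPKM and Scarna13 10.7 and 8.10 FPKM, whereas Scarna6 measured 1.19 and 1.00 FPKM there (difference between genotypes as deposited 1.90, adjusted p = 0.0456; centred 1.21, adjusted p = 0.557). Hist1h1a, a linker histone gene, measured 4.95 and 8.79 FPKM before and 26.6 and 21.1 FPKM after. The remaining 5 beside Myef2 were Ghr, Gm7616, Gm9781, Hist1h2bj and Uhmk1. Ghr was at the floor in both KO GV libraries and at 1.21 and 1.24 FPKM in KO 1-cell.

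**Figure D2:**
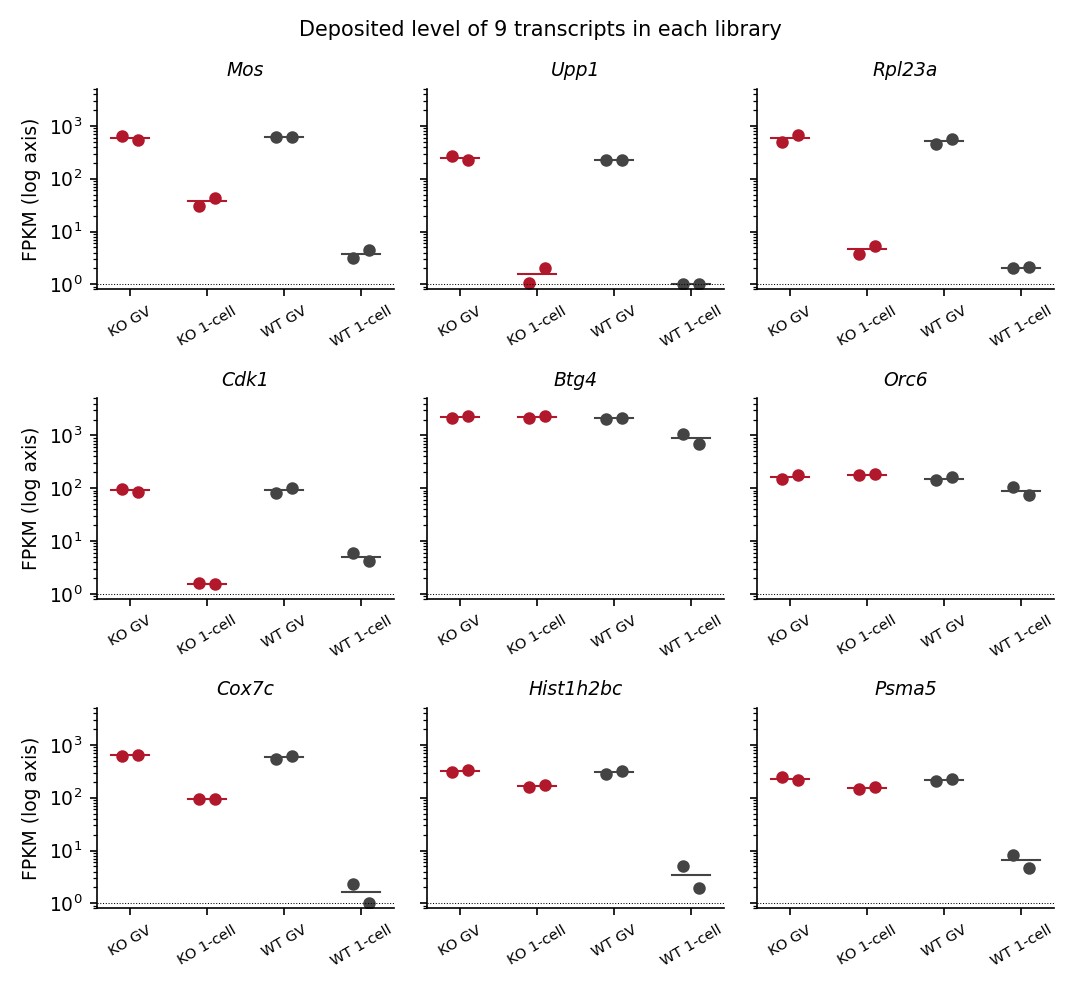
Deposited FPKM of 9 transcripts (log axis) in each library, with KO in red, WT in grey, a line at the mean of the 2 libraries and a dotted line at the floor of 1 FPKM. Mos, Upp1, Rpl23a and Cdk1 sit far lower in KO 1-cell than in KO GV, Btg4 and Orc6 at about the same level, and Cox7c, Hist1h2bc and Psma5 much higher in KO 1-cell than in WT 1-cell.

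The changes were then counted in fixed gene lists. Over all genes 10.5% were lower and 6.74% higher after centring, and in the fit of genes averaging at least 5 FPKM, called the filtered fit below, 27.9% and 33.5%. A list whose shares lie near these shows nothing about its members. Cytoplasmic ribosomal protein genes had the lowest median of the 28 lists: 58 of 82 fell after centring, 1 rose and 23 did not pass, with a median log2 change of −2.50 against 0.00 over all genes. As deposited, 77 of the 82 fell and the median was −3.77 against −0.74 over all genes. Nuclear-encoded oxidative phosphorylation genes followed, with 39 of 82 lower and 2 higher after centring and a median of −1.19. Uqcrq, a subunit of complex III, measured 560 and 608 FPKM in KO GV and 12.99 and 11.78 FPKM in KO 1-cell (−4.16, adjusted p = 0.0186), and Atp5o, of the ATP synthase, 292 and 331 FPKM before and 6.04 and 8.19 FPKM after (−4.04, adjusted p = 0.00767). Of 45 proteasome genes 14 fell and 0 rose, at a median of −0.32 and with 31 that did not pass. Psmb5, a catalytic subunit, went from 156 and 130.0 FPKM to 5.75 and 7.74 FPKM (−2.99, adjusted p = 0.0115), and Psmc4, an ATPase of the base, had a centred change of −2.80 (adjusted p = 0.00747). In the filtered fit, 72 of 82 ribosomal protein genes, 56 of 80 oxidative phosphorylation genes and 21 of 40 proteasome genes fell, beside 4, 8 and 10 that rose.

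Other housekeeping lists had lower and higher members. Among translation initiation and elongation factors 15 of 54 fell and 6 rose after centring (median −0.07), with Eef1d, a subunit of the elongation factor that recharges eEF1A, at 187 and 191 FPKM before and 8.71 and 10.5 FPKM after (−2.90, adjusted p = 0.0103). Of 42 spliceosome and SR protein genes 4 fell and 7 rose (median 0.36), with Snrpd2 and Snrpb (−2.32, adjusted p = 0.0205) among the falls and Srsf5 among the rises. Of 52 nucleolar factors of ribosome biogenesis 9 fell and 3 rose (median −0.25), and Utp11l, of the small-subunit processome, had a centred change of −2.78 (adjusted p = 0.00956). Of 32 enzymes of glycolysis and the citric acid cycle 4 fell and 4 rose (median 0.00), with Mdh2 at −2.62 (adjusted p = 0.00734). Of 17 V-ATPase genes, which encode the proton pump of lysosomes, 3 fell and 1 rose (median −0.34), and of 19 common reference genes 4 fell and 2 rose (median −0.13), with Ubb at −2.19 (adjusted p = 0.0148) and Tuba1b at −2.73 (adjusted p = 0.0207). In the filtered fit the lower and higher calls were 19 and 15 of 50 translation factors, 7 and 14 of 38 spliceosome genes, 17 and 5 of 39 nucleolar factors, 8 and 8 of 27 enzymes, 7 and 3 of 16 V-ATPase genes and 7 and 2 of 17 reference genes.

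**Figure D3:**
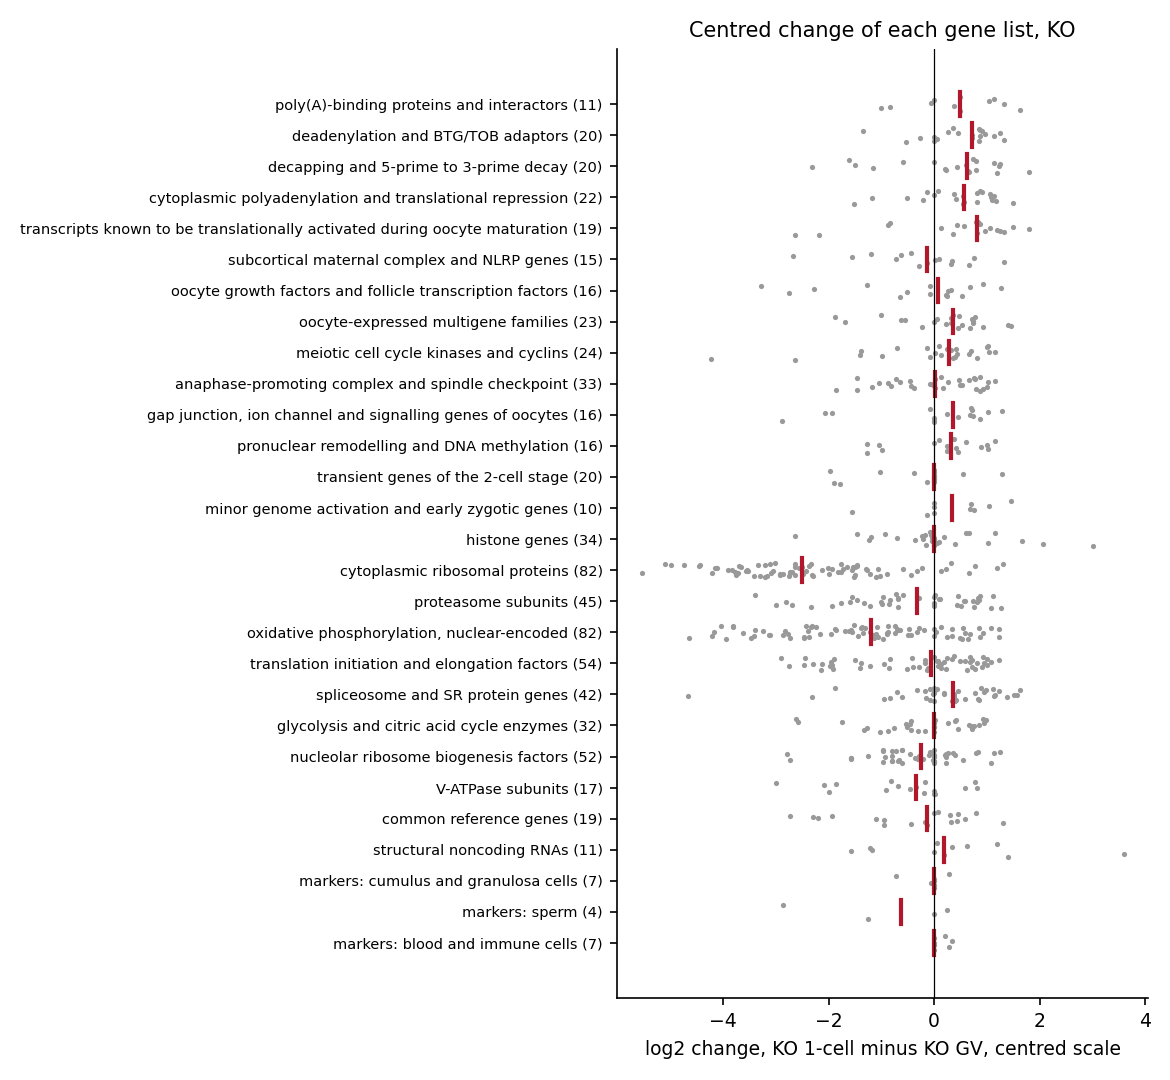
Centred log2 change from KO GV to KO 1-cell of the measured members of 28 gene lists; each grey point is a gene, the red bar is the list's median and the number of members is in brackets. Ribosomal proteins (median −2.50) and oxidative phosphorylation genes (−1.19) lie farthest to the left.

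Genes whose products act on maternal transcripts were counted next. Of 20 genes of deadenylation and its BTG/TOB adaptors 1 fell and 2 rose after centring, at a median of 0.72. Cnot7, a catalytic deadenylase subunit, measured 203 and 167 FPKM in KO GV and 153 and 188 FPKM in KO 1-cell (centred 1.24, adjusted p = 0.0331; as deposited −0.11, adjusted p = 0.637), and its groups overlapped as deposited. Cnot10, a non-catalytic subunit, measured 20.9 and 18.9 FPKM before and 2.52 and 3.21 FPKM after, and fell (−1.34, adjusted p = 0.0348). Of 20 genes of decapping and 5′ to 3′ decay 2 fell and 3 rose, at a median of 0.62. Dcp2, the decapping enzyme, measured 7.28 and 8.30 FPKM before and 10.0 and 13.1 FPKM after (centred 1.79, adjusted p = 0.0252; as deposited 0.51, adjusted p = 0.149), and Lsm3, of the ring that binds deadenylated transcripts and of the U6 particle, fell from 471 and 606 FPKM to 44.2 and 39.4 FPKM (−2.31, adjusted p = 0.0434). In the filtered fit 1 of 18 deadenylation genes was lower and 11 higher, and 4 of 17 decay genes were lower and 11 higher, against 27.9% and 33.5% of all genes there.

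Of 11 poly(A)-binding proteins and their interactors, none fell and none rose after centring at an adjusted p under 0.05, at a median of 0.48. The filtered fit called 2 of 9 lower and 4 higher. Paip1, a translational partner of cytoplasmic poly(A)-binding protein, measured 264 and 285 FPKM before and 283 and 258 FPKM after, and Pabpn1, the nuclear relative of Pabpn1l, 13.77 and 24.95 FPKM before and 21.5 and 25.3 FPKM after (centred 1.63, adjusted p = 0.0864). Both pairs of groups overlapped as deposited.

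Among 22 genes of cytoplasmic polyadenylation and translational repression 2 fell and 3 rose, at a median of 0.56. Cpeb1, the protein that binds CPEs, fell from 214 and 250 FPKM to 26.3 and 37.4 FPKM (−1.52 centred, adjusted p = 0.0231), and Zar1l, a relative of the maternal messenger-binding protein Zar1, from 631 and 719 FPKM to 104 and 130.0 FPKM (−1.18, adjusted p = 0.0348). Of 19 transcripts listed because they are known to be translationally activated during maturation, 3 fell and 4 rose, at a median of 0.82. Plat, which encodes tissue plasminogen activator, went from 669 and 555 FPKM to 36.3 and 74.7 FPKM and fell (−2.18, adjusted p = 0.037). Orc6, a subunit of the origin recognition complex, measured 148 and 180.0 FPKM before and 178 and 184 FPKM after and rose after centring (1.50, adjusted p = 0.0487; as deposited 0.15, adjusted p = 0.418). In the filtered fit 2 of 17 genes of the first list were lower and 9 higher, and 4 of the 19 activated transcripts were lower and 11 higher.

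In the subcortical maternal complex and the NLRP family, which early cleavage depends on, 1 of 15 fell after centring, at a median of −0.13, while 11 of 15 fell as deposited. Ooep was the one that fell, from 2279 and 2708 FPKM to 173 and 133 FPKM (−2.67, adjusted p = 0.0478). Nlrp14 went from 2196 and 1632 FPKM to 231 and 275 FPKM (centred −1.55, adjusted p = 0.0506), and Nlrp4e measured 45.0 and 34.1 FPKM before and 42.5 and 36.1 FPKM after. Of 16 genes of oocyte growth factors and follicle transcription factors 4 fell and 0 rose (median 0.07): Gtsf1, a piRNA pathway protein (−3.28, adjusted p = 0.0199), Figla, the transcription factor of the zona pellucida genes (−2.75, adjusted p = 0.0314), Fgf8 (−2.28, adjusted p = 0.0375) and Npm2, a nuclear chaperone (−1.28, adjusted p = 0.0377). Of 23 genes of oocyte-expressed families 2 fell and 0 rose (median 0.35), both of the Fbxw family, Fbxw21 (−1.88, adjusted p = 0.0318) and Fbxw13 (−1.68, adjusted p = 0.02). With the filter the lower and higher calls were 5 and 3 of 15 in the first list, 4 and 3 of 15 in the second and 3 and 8 of 21 in the oocyte-expressed families. Omt2a, of another oocyte-expressed family, measured 879 and 1108 FPKM before and 1072 and 1044 FPKM after (centred 1.45, adjusted p = 0.0928).

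In the cell cycle lists, 3 of 24 meiotic kinases and cyclins fell and 5 rose after centring (median 0.29), with Cdk1, Mos and Wee1, the inhibitory kinase of Cdk1 (−1.41, adjusted p = 0.0351), as the falls. Wee1 was at 8.454 and 10.96 FPKM before and at the floor in both 1-cell libraries. Of 33 genes of the anaphase-promoting complex and the spindle checkpoint 5 fell and 1 rose (median 0.02), among them Fbxo5, an inhibitor of the complex (−1.85, adjusted p = 0.0205), Fzr1, an activator of the complex (−1.47, adjusted p = 0.0262), and Birc5, the survivin subunit of the chromosomal passenger complex (−1.46, adjusted p = 0.0311). In the list of oocyte junction, channel and signalling genes 2 of 16 fell and 2 rose (median 0.35). Gja4, connexin 37 of the junctions with granulosa cells, fell from 411 and 365 FPKM to 16.03 and 25.56 FPKM (−2.88, adjusted p = 0.0124), and Folr4, the sperm receptor Juno on the egg, from 347 and 346 FPKM to 27.6 and 37.3 FPKM (−2.06, adjusted p = 0.00734). When filtered, 6 of 22 kinases and cyclins were lower and 7 higher, 9 of 33 genes of the complex and checkpoint were lower and 10 higher, and 3 of 11 junction and channel genes were lower and 6 higher. Shares of 27.9% lower and 33.5% higher were found over all genes in that fit, and the first 2 of these lists lie near them.

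In lists of early embryo genes, 12 of 20 transient genes of the 2-cell stage and 3 of 10 genes of minor genome activation were at the floor in all 4 KO libraries. Of the 20 transient genes of the 2-cell stage 4 fell and 1 rose after centring, at a median of 0.00, a value set by the members at the floor. Arg2 (−1.98, adjusted p = 0.0276), Dppa2 (−1.79, adjusted p = 0.0118) and Dppa4 (−1.90, adjusted p = 0.0245) were among the falls, and Dppa4 was at the floor in both KO 1-cell libraries. Of the 10 genes of minor genome activation and early zygotic expression 1 fell, the chaperone gene Hspa8 (−1.56, adjusted p = 0.0187), and 1 rose (median 0.34). In the whole table, 7 genes were at the floor in both KO GV libraries and above it in both KO 1-cell libraries. Of 34 histone genes 4 fell and 2 rose (median 0.00), with H2afx at −2.63 (adjusted p = 0.0177) and Hist1h2ba, a germ cell H2B, at 2.06 (adjusted p = 0.0385). Of 16 genes of pronuclear remodelling and DNA methylation 1 fell and 2 rose (median 0.32), with H3f3b, a histone H3.3 gene, at 1.15 (adjusted p = 0.0428). Among 11 structural noncoding RNAs 1 fell and 0 rose (median 0.18). Lower and higher calls in the filtered fit were 4 and 2 of 7 transient genes, 1 and 3 of 4 early zygotic genes, 4 and 4 of 14 histone genes, 4 and 4 of 13 pronuclear genes and 2 and 3 of 6 noncoding RNAs.

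The KO change was then set beside the change in WT on a scale common to the 8 GV and 1-cell libraries, centred over 6221 genes above 1 FPKM in all 8, with a floor of 5.97 FPKM. Over the 6631 transcripts with at least 5 FPKM in all 4 GV libraries, the change in KO followed that in WT, with Pearson's r of 0.84 across genes. Genes are not independent replicates, and both changes were centred on the same genes. A fall of at least 4-fold was measured for 469 transcripts in WT and for 373 (5.63%) in KO, and 267 were common to both, which is 56.9% of the WT falls and 71.6% of the KO falls. In the class with a WT fall of at least 4-fold, the median change was −2.62 in WT and −2.20 in KO. The classes were cut on the WT values alone, so their medians are no measure of a weaker fall in KO. Of the 907 transcripts with a WT fall of 2 to 4-fold, 9.81% were at least 4-fold lower in KO, at a median of −1.14 against −1.37 in WT. Of the remaining 5255 transcripts 0.324% did so. These shares are counts with no test. They also depend on the floor, because a transcript with a low GV level cannot show a fall of 4-fold on this scale. Dppa4, at 16.02 and 12.14 FPKM in KO GV and 1.00 FPKM in both KO 1-cell libraries, had a change of −1.10 on it.

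**Figure D4:**
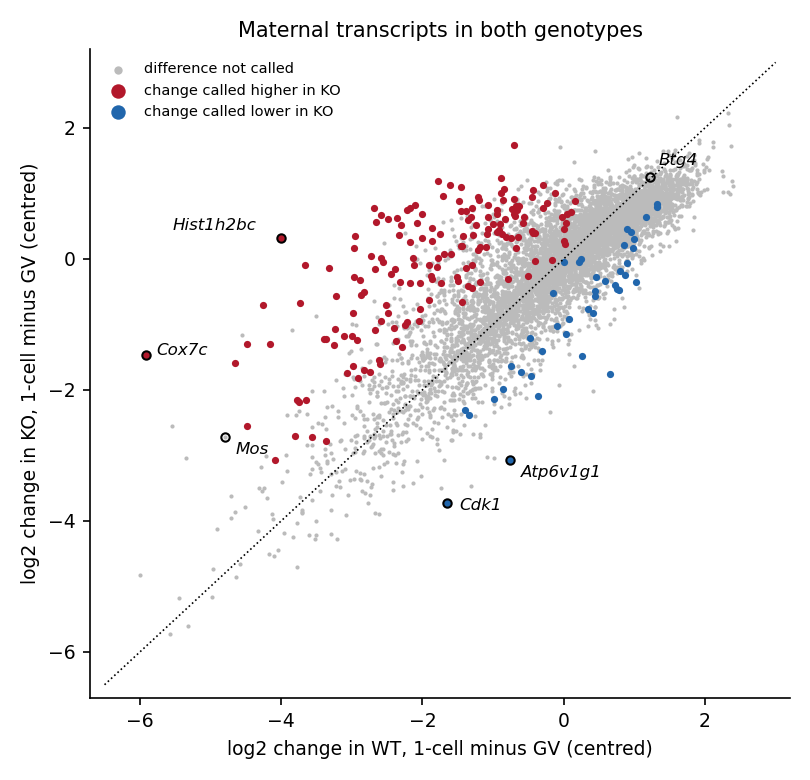
Centred log2 change from GV to 1-cell in KO (y axis) against WT (x axis) for the 6631 transcripts with at least 5 FPKM in all 4 GV libraries; the dotted line marks equal change. Red and blue mark transcripts whose change was called higher or lower in KO, with Cox7c at −1.47 in KO and −5.92 in WT, and Cdk1 at −3.73 and −1.65. Rn45s, at −9.42 in WT, lies outside the drawn range.

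Whether the 2 genotypes differed in the change was tested as an interaction over the 8 libraries. After centring, the change was higher in KO for 178 genes (1.58%) and lower for 90 (0.797%), and 167 and 42 of these were among the 6631 maternal transcripts. Filtered alike, the numbers were 459 (7.42%) and 197 (3.18%) of 6186, and 155 of the 160 higher calls and 28 of the 37 lower calls that were tested there were called again. As deposited, the change was higher in KO for 2103 genes (18.6%) and lower for 58 (0.513%), a split that includes the library factors, which were 0.269 and 0.212 in WT 1-cell. Of the 167 maternal transcripts with a higher change, 75 had a WT fall of at least 4-fold, and the median change over the 167 was 0.18 in KO and −1.78 in WT. The 167 were selected by this difference, which fixed the order of these medians. Of the 167, 105 were lower in KO 1-cell than in KO GV as deposited, and 35 also after centring. Over all 6752 KO maternal transcripts these shares were 51.8% and 16.5%, so such falls are not particular to the 167. Both WT 1-cell libraries were at the centred floor in 35 of the 178, and both KO 1-cell libraries in 38 of the 90. Leaving out 1 library at a time gave 70 to 219 higher and 38 to 347 lower calls after centring. The fewest higher calls came without KO GV replicate 2 and the most lower calls without WT 1-cell replicate 1.

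Cox7c, Hist1h2bc and Psma5 had a higher change in KO than in WT. Cox7c, a subunit of cytochrome c oxidase, measured 622 and 654 FPKM in KO GV and 93.4 and 96.0 FPKM in KO 1-cell, against 545 and 628 FPKM before and 2.32 and 1.00 FPKM after in WT. It fell in KO after centring (−1.39, adjusted p = 0.0447), and its change was higher than in WT by 4.45 ± 0.45 SE on the log2 scale (adjusted p = 0.021). The WT 1-cell value of replicate 2 was at the floor, which limits the measured size.
Hist1h2bc, a histone H2B gene, measured 308 and 337 FPKM before and 158 and 175 FPKM after in KO, and 287 and 314 FPKM before and 5.04 and 1.97 FPKM after in WT (difference 4.32 ± 0.50 SE, adjusted p = 0.0307). Psma5, a proteasome core subunit, measured 242 and 217 FPKM before and 144 and 159 FPKM after in KO, and 207 and 225 FPKM before and 8.26 and 4.72 FPKM after in WT (difference 3.25, adjusted p = 0.0167). In all 3 genes the 1-cell values of the genotypes lay apart, with KO the higher.
Mtx2, a subunit of the mitochondrial outer membrane sorting complex (3.57, adjusted p = 0.0013), 2410004A20Rik (3.56, adjusted p = 0.00453), Tm2d1 (3.44, adjusted p = 0.0377), Lsm4 of the Lsm rings (3.30, adjusted p = 0.00179), Ccdc23 (3.22, adjusted p = 0.01) and Paip2, an inhibitor of poly(A)-binding protein (3.18, adjusted p = 0.0126), completed the named genes with Rn45s. In Mtx2, Lsm4 and Ccdc23 both WT 1-cell libraries were at the centred floor of 5.97 FPKM, so the sizes of these differences depend on the floor. As deposited, all 6 measured lower in KO 1-cell than in KO GV, and all but Tm2d1 passed (−0.50, limma adjusted p = 0.0583). This direction turned for Mtx2, Tm2d1, Lsm4 and Ccdc23 under quantile normalization. After centring only Lsm4 of the 6 passed in KO (0.43, adjusted p = 0.039).

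Rn45s, the precursor of ribosomal RNA and no polyadenylated messenger, stood apart with a difference of 10.74 ± 0.70 SE (adjusted p = 0.00666). It measured 2446 and 6099 FPKM in KO GV, 3286 and 4838 FPKM in KO 1-cell, 4050 and 6056 FPKM in WT GV and the floor in both WT 1-cell libraries. The KO groups overlapped, and the 2 WT 1-cell values were the ones that lay apart. Because both of these are at the floor, the size of the difference depends on it.

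Of the messengers named for a higher change in KO, Psma5 and Tm2d1 each hold a CPE in the last 100 bases, whereas Cox7c, Hist1h2bc, Mtx2, 2410004A20Rik, Lsm4, Ccdc23 and Paip2 hold none. Among the KO maternal transcripts with a UTR of at least 100 bases, 20.8% of 6007 held a CPE there. So few named messengers cannot be told apart from that share. The windows were chosen after the values were seen, to show examples with and without a CPE, and the 30 bases end at the hexamer in Cox7c. Their mix is therefore no measure of how common a CPE is in the set.
Psma5: gtttTTTTATgaagtctgtacataacagca
Tm2d1: tcatTTTTATttgtgaaaAATAAAaagata
Cox7c: actcttatactagaaaaaattgtaAATAAA
They lie at chr3:108279918-108279947 on the plus strand, chr4:98355381-98355410 on the minus strand and chr13:86044831-86044860 on the minus strand of GRCm38.

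A smaller set had a lower change in KO than in WT. Atp6v1g1, a subunit of the proton pump, measured 305 and 263 FPKM before and 14.1 and 13.1 FPKM after in KO, and 275 and 284 FPKM before and 33.9 and 25.1 FPKM after in WT (difference −2.30 ± 0.28 SE, adjusted p = 0.0331). Sec62, of the protein import channel of the endoplasmic reticulum, measured 46.8 and 53.3 FPKM before and 6.19 and 5.43 FPKM after in KO, and 42.6 and 47.7 FPKM before and 13.5 and 12.1 FPKM after in WT (difference −2.42 ± 0.32 SE, adjusted p = 0.0384). In both genes KO 1-cell was below WT 1-cell even as deposited.
Cdk1 had a difference of −2.08 ± 0.22 SE (adjusted p = 0.0221), with both KO 1-cell libraries at the centred floor of 5.97 FPKM, so that this size depends on the floor. Centred differences were also measured for Nr1d1, a circadian nuclear receptor (−1.73, adjusted p = 0.0375), Stxbp6, a syntaxin-binding protein (−1.73, adjusted p = 0.0475; KO 1-cell replicate 2 at the floor), and Mea1 (−1.33, adjusted p = 0.0221). As deposited, limma did not call Nr1d1 (−0.53, adjusted p = 0.0871), Stxbp6 (−0.55, adjusted p = 0.0537) or Mea1 (−0.12, adjusted p = 0.737). It did call Sec62 (−1.16, adjusted p = 0.0194), Atp6v1g1 (−1.06, adjusted p = 0.0381) and Cdk1 (−1.25, adjusted p = 0.0335). For Mos the centred fall was −2.72 in KO and −4.79 in WT, and the difference of 2.08 did not pass (adjusted p = 0.0714). As deposited the Mos difference was 3.04 and passed the same limma test (adjusted p = 0.00911). Mos measured 30.8 and 43.6 FPKM in KO 1-cell, against 3.15 and 4.49 FPKM in WT 1-cell. For Btg4 the centred difference was 0.03 (adjusted p = 1). As deposited the Btg4 difference was 1.25 and did not pass (limma adjusted p = 0.0647). In WT, Btg4 measured 2050 and 2148 FPKM before and 1084 and 694 FPKM after, below both KO 1-cell values. Birc5 had a difference of −1.18 that did not pass (adjusted p = 0.071).

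Of the lists, oxidative phosphorylation genes had 9 of 82 members with a higher change in KO and 1 with a lower one, and their median centred change was −1.88 in WT. Proteasome genes had 5 of 45 higher and 0 lower, at a WT median of −1.10. Ribosomal protein genes had 4 of 82 higher and 0 lower, and their medians were −2.58 in KO and −2.83 in WT. Over all genes, 1.58% were higher and 0.797% lower, but 3604 of the 11298 genes had no spread on this scale. Among genes averaging at least 5 FPKM, fitted alone, 7.42% were higher and 3.18% lower. Of the 469 maternal transcripts with a WT fall of at least 4-fold, 75 were higher and 0 lower. Of the 907 with a WT fall of 2 to 4-fold, 46 were higher and 3 lower. The part of level and of WT fall in the counts of these lists was not tested. Eif3g, a subunit of the initiation factor that binds the small ribosomal subunit, fell in KO (−2.47, adjusted p = 0.0186) from 216 and 226 FPKM to 11.5 and 20.2 FPKM, and fell less than in WT (difference 1.93, adjusted p = 0.0178). Hspa8 and Zar1l also fell less in KO after centring, by 1.35 (adjusted p = 0.0127) and 1.12 (adjusted p = 0.0422). As deposited their differences were 2.49 (limma adjusted p = 0.0119) and 2.30 (adjusted p = 0.0118). Folr4 fell further in KO after centring alone, by −1.16 (adjusted p = 0.0366). As deposited its difference was 0.04 (limma adjusted p = 0.948), with 27.6 and 37.3 FPKM in KO 1-cell and 36.4 and 25.6 FPKM in WT 1-cell.

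The most abundant transcripts of the KO oocyte did not share 1 course. Gm15698 measured 5017 and 5363 FPKM in KO GV and 2031 and 2240 FPKM in KO 1-cell, and Skp1a, a subunit of SCF ubiquitin ligases, 3635 and 3695 FPKM before and 1602 and 1622 FPKM after. Both fell as deposited (−1.28, adjusted p = 0.0142, and −1.18, adjusted p = 0.0114) and changed about as much as the middle transcript (0.07 and 0.17 centred, adjusted p = 1 for both). E330017A01Rik measured 4432 and 4679 FPKM before and 364 and 283 FPKM after (−3.82 as deposited, adjusted p = 0.00403; −2.47 centred, adjusted p = 0.0623). Tlcd2 measured 4687 and 3694 FPKM before and 990 and 1434 FPKM after (−1.80 as deposited, adjusted p = 0.0236; −0.45 centred, adjusted p = 0.70).

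Transcript length moved with the centred change in both genotypes. Of the 6631 transcripts, 6377 (96.2%) had a GENCODE length. They were split by length into 10 groups. In the group of the shortest, 198 to 1044 bases, the median change was −0.89 in KO and −1.09 in WT. In the group of 2154 to 2590 bases it was 0.08 and −0.05, and in that of the longest 0.45 and 0.69. Of the shortest transcripts, the 527 outside the ribosomal protein, oxidative phosphorylation and proteasome lists had a KO median of −0.66. Median KO GV level also moved with length, from 91.6 FPKM in the group of the shortest to 14.2 FPKM in that of the longest. The floor of 5.97 FPKM limits how far a transcript with a low GV level can fall on this scale. The part of level and floor in the trend with length was not tested.

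**Figure D5:**
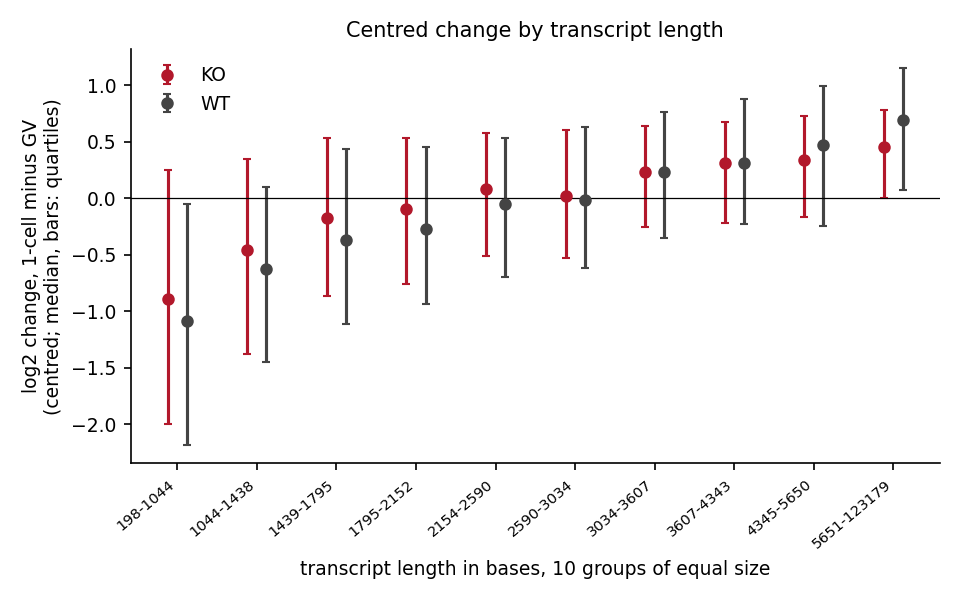
Median centred log2 change from GV to 1-cell (y axis; bars span the quartiles) in KO (red) and WT (grey) for 10 groups of transcripts of rising length in bases (x axis). The medians go from −0.89 to 0.45 in KO and from −1.09 to 0.69 in WT.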

How the data were processed

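The authors deposited 1 table of FPKM values, with a column for each library. The genome build was mm9 and the tools included Cufflinks 2.2.1 and TopHat2 2.1.1, per the submitters' processing notes. Per the labels' protocols, ERCC spike-in RNA was in the lysis buffer; they were not used here. Divided by 1 factor per library, 100% of the values above the floor had at most 6 significant digits, with 0.01 of the last digit allowed as rounding. Depth is unknown, because FPKM carry no counts.

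Values were analysed as log2(FPKM + 1), which understates the change of low genes, with limma 3.58.1 (lmFit, eBayes with an intensity trend) in R 4.3.3 and Python 3.11.15. The 4 KO libraries were fitted for the KO change and 8 libraries for the difference between genotypes, with two-sided p-values adjusted by Benjamini-Hochberg over all 11298 genes and a threshold of 0.05. Values after ± are standard errors.

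Genes without spread at the floor lower the weight that limma gives to the spread shared over genes. Its prior degrees of freedom were 0.85 in the centred KO fit and 0.84 in the centred difference, against 11.45 and 7.73 among genes averaging at least 5 FPKM. The planned fit over all genes was kept, and the filtered counts are printed beside it. The functions were tested on simulated data with known changes. The centred fits over all genes recovered none of the changed genes in the KO change and few in the difference, where some calls were false. The filtered fits recovered nearly all. Calls as deposited followed the simulated library factors to a large part. A gene that did not pass cannot be taken as unchanged.

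Genes were named by rule: Pabpn1l, Mos and Btg4; the 10 largest centred falls and 10 largest rises among non-overlapping calls with a mean of at least 20 FPKM; the 10 largest positive and 6 largest negative differences; the 5 highest in KO GV; and up to 4 members of each of the 28 lists. Some genes that the rule selects are not reported here. Members and lists were chosen with earlier results of these data known. Transcript lengths and sequences came from GENCODE M21 (GRCm38), where 10576 symbols matched, 956 of them by an older symbol from RefSeq. The alternatives covered the pseudocount, filters, scaling, the intensity trend, the libraries fitted, the replicate number and leaving out each library.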

Additional observations from a re-analysis of the deposited data

Results flagged for a closer look

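The change from GV to 1-cell differed between the genotypes by the interaction test over 8 libraries (limma, Benjamini-Hochberg adjusted over all genes, centred scale) for 178 genes with a higher change in KO and for 90 with a lower one. Among the named genes the positive differences, as KO minus WT on the log2 scale, were 10.74 for Rn45s, 4.45 for Cox7c, 4.32 for Hist1h2bc, 3.57 for Mtx2, 3.56 for 2410004A20Rik, 3.44 for Tm2d1, 3.30 for Lsm4, 3.25 for Psma5, 3.22 for Ccdc23 and 3.18 for Paip2. Smaller positive differences were measured for Eif3g (1.93), Hspa8 (1.35), Zar1l (1.12), Mdh2 (1.11) and Psmb5 (1.01). The negative differences were −2.42 for Sec62, −2.30 for Atp6v1g1, −2.08 for Cdk1, −1.73 for Nr1d1, −1.73 for Stxbp6, −1.33 for Mea1 and −1.16 for Folr4. As deposited, the differences of Nr1d1, Stxbp6, Mea1 and Folr4 did not pass. Both WT 1-cell libraries were at the centred floor for Rn45s, Mtx2, Lsm4 and Ccdc23, as were both KO 1-cell libraries for Cdk1, so these sizes depend on the floor. The difference of 1.70 for Pabpn1l, the targeted gene, followed from a WT transcript that fell from 220.1 and 203.9 FPKM, while the KO values lay between 2.58 and 7.23 FPKM as deposited. The groups of 2 libraries are too small for a check of single libraries that stand apart.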

How the results depend on the processing

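With 2 libraries a group, counts moved with most settings. As deposited, the 4943 lower and 10 higher calls became 2392 and 2755 under quantile normalization, 7563 and 26 with all 12 libraries in the fit, 1653 and 338 before the library factor, and 1113 to 3473 and 3 to 20 without 1 library. After centring, higher calls rose to 2122 with a mean of at least 5 FPKM, and leaving out 1 library gave 266 to 753 lower and 38 to 478 higher. The genotype difference after centring had 197 lower and 459 higher calls with that filter, 147 lower under quantile normalization, and 38 to 347 lower and 70 to 219 higher without 1 library. As deposited it had 10 lower and 3998 higher with that filter, 3310 higher among genes above 1 FPKM in at least 2 libraries, 372 and 780 under quantile normalization, 36 lower with no intensity trend, 97 and 4374 with 12 libraries, 297 higher before the factor, and 10 to 258 lower and 458 to 4328 higher without 1 library. Replicate numbers did not pair the libraries (correlation of same-numbered deviations across genes −0.26 in KO and −0.18 in WT). The replicate block gave 2728 lower and 5 higher as deposited and 0 of either after centring, and for the difference 30 and 44 centred and 19 and 535 as deposited. Crossed pairing, added after seeing the data, gave 4315 and 7 as deposited, 0 and 0 centred, 84 and 145 for the centred difference and 1190 higher for the deposited one. With a fall of at least 2-fold counted, the KO shares were 57.9% in the class of WT falls of 2 to 4-fold and 4.47% in the remainder. Among the named genes' values that passed in either fit, no centred change or difference turned its direction, and 26 deposited values did. Under quantile normalization these were Btg4 (0.72), Hist1h2bc (0.40), Mtx2 (0.04), Tm2d1 (0.85), Lsm4 (0.44), Psma5 (0.77), Ccdc23 (0.65), Paip1 (1.32), Larp4 (1.13), Paip2b (1.08), Cnot7 (1.27), Cnot3 (1.10), Papd5 (1.14), Lsm14b (1.15), H3f3b (0.97), Klf17 (1.12), Pou5f1 (0.71), Nr5a2 (0.35) and Odf2 (0.25). Before the library factor they were Hist1h2bc (0.08), Lsm4 (0.11), Psma5 (0.43), Ccdc23 (0.32), Cnot7 (0.92), H3f3b (0.83) and Nr5a2 (0.02). Both settings remove or equalize the scale of the libraries by construction; the cause of the other changes was not tested. Depth is unknown, so small changes near the floor cannot be weighed by reads.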
